A study of Mus musculus with 6 samples.

Results

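The LIF receptor gene Lifr and 8 genes of the gp130 cytokine pathway (Il6st, Cntfr, Osmr, Il6ra, Jak1, Jak2, Stat3 and Socs3) were examined in mouse hippocampus with and without inhibitor-1. Lifr was picked because its value was higher in the knockout, and the other 8 because they belong to the same pathway. All probe sets that the platform annotation assigns to exactly 1 of these symbols were taken, 26 of the 45101 on the array, and 0 probe sets with several symbols held a member. The study hybridised total hippocampal RNA of 3 samples labelled as inhibitor-1 knockout and 3 labelled as wild type, each on 1 one-colour Affymetrix array. Inhibitor-1, the product of Ppp1r1a, restrains protein phosphatase 1 once protein kinase A has phosphorylated it. The labels give genotype, tissue and replicate number, and leave out strain, sex, age, treatment, the targeting construct and whether each array was a separate animal, so any spread between replicates may be technical.

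Cytokines of the interleukin-6 family signal through gp130, the shared receptor chain encoded by Il6st. Gp130 pairs with Lifr for leukaemia inhibitory factor and ciliary neurotrophic factor, with the membrane-anchored Cntfr as a further chain for ciliary neurotrophic factor, whereas Osmr and Il6ra serve oncostatin M and interleukin-6. The receptors have no kinase of their own: they activate the bound kinases Jak1 and Jak2, which phosphorylate the transcription factor Stat3, and Stat3 switches on Socs3, which binds the receptor complex and shuts it down. In the brain this pathway is known for astrocyte differentiation and for the response of glia and neurons to injury.

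Because Socs3 is the pathway's own transcriptional brake, its promoter is shown as RefSeq gives it (GRCm38.p6, chr11:117969317-117969616, minus strand), from 250 bases before the gene start to 50 bases after it. The capitals mark a match to the STAT motif TTCNNNGAA, which reads the same on both strands and begins 154 bases before the start.
Socs3: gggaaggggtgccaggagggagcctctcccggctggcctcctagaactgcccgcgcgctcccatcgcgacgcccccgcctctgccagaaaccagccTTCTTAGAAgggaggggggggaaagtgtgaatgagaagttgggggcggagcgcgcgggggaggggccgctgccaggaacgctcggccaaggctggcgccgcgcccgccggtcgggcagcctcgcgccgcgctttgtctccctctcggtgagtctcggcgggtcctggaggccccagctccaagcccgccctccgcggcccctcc
Among 15 promoters listed for the 9 genes this was the 1 with a match, and 8.3% of all 32851 promoters of this length hold one. A match describes the letters and does not show that a factor binds there.

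The deposited values are probe set intensities on a linear scale. Changes are differences of mean log2(intensity + 16), knockout minus wild type, and were estimated with limma, whose p-values were adjusted by Benjamini-Hochberg over the 26999 probe sets above an intensity filter (a mean log2 value above 8.44). A probe set was called at an adjusted p under 0.05. The targeted gene matched the labels: Ppp1r1a probe set 1422605_at read 272, 249 and 347 in knockout and 9061, 8370 and 10345 in wild type. For beta-actin, the signal at the 3' end divided by that at the 5' end, a measure of RNA integrity, was 1.18 to 1.21 in knockout and 1.24 to 1.30 in wild type, so it moved with genotype, while that of Gapdh overlapped, at 0.821 to 0.829 in knockout and 0.809 to 0.880 in wild type. The part of RNA integrity in the differences below was not tested. The mean correlation of an array with the other group, over all tested probe sets, was 0.968 to 0.972, against 0.963 to 0.974 with its own.

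In the whole fit 3 probe sets were called, all lower in knockout, which is 0.0111% of those tested, and at an unadjusted p under 0.05 there were 1182 (4.38%). None of the 19 member probe sets that passed the filter was called, Lifr included, and among the 18 of them that belong to the other 8 genes 0 reached even an unadjusted p under 0.05 in limma. All 9 genes kept at least 1 probe set, and the 7 left out were dim ones of Lifr (2), Osmr (2), Socs3 (2) and Il6ra (1). Values of different probe sets cannot be ranked as expression levels, since each binds with its own efficiency, so each is compared only between arrays.

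Lifr showed the separation for which it was chosen at its bright probe set, 1454984_at. The intensity was 8402, 7645 and 8182 in knockout, against 5209, 6217 and 5623 in wild type. Every knockout array thus lay above every wild-type array, and the gap between the lowest knockout and the highest wild-type value was wider than the range within either group. The means were 8076 ± 390 in knockout and 5683 ± 507 in wild type (SD, n = 3 each), a ratio of 1.42 and a log2 change of 0.51. These values chose the gene and are given as a description. The probe set was part of the whole fit, where it was not called, and no p-value is given for it.

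The other pair of Lifr probe sets were near the dim end of the scale and gave no clear reading. Probe set 1425107_a_at had 277, 171 and 136 in knockout, against 83.3, 128 and 143 in wild type. Probe set 1450207_at had 202, 131 and 244 in knockout, against 172, 125 and 122 in wild type. Both groups overlap in each of them. Their log2 changes of 0.62 and 0.40 carry the same sign as the bright one, with standard errors of 0.64 and 0.62, and neither entered the test. The higher Lifr reading therefore rests on 1 probe set. RefSeq lists 2 promoters for Lifr, and no source used here says which transcript each probe set reads.

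**Figure D1:**
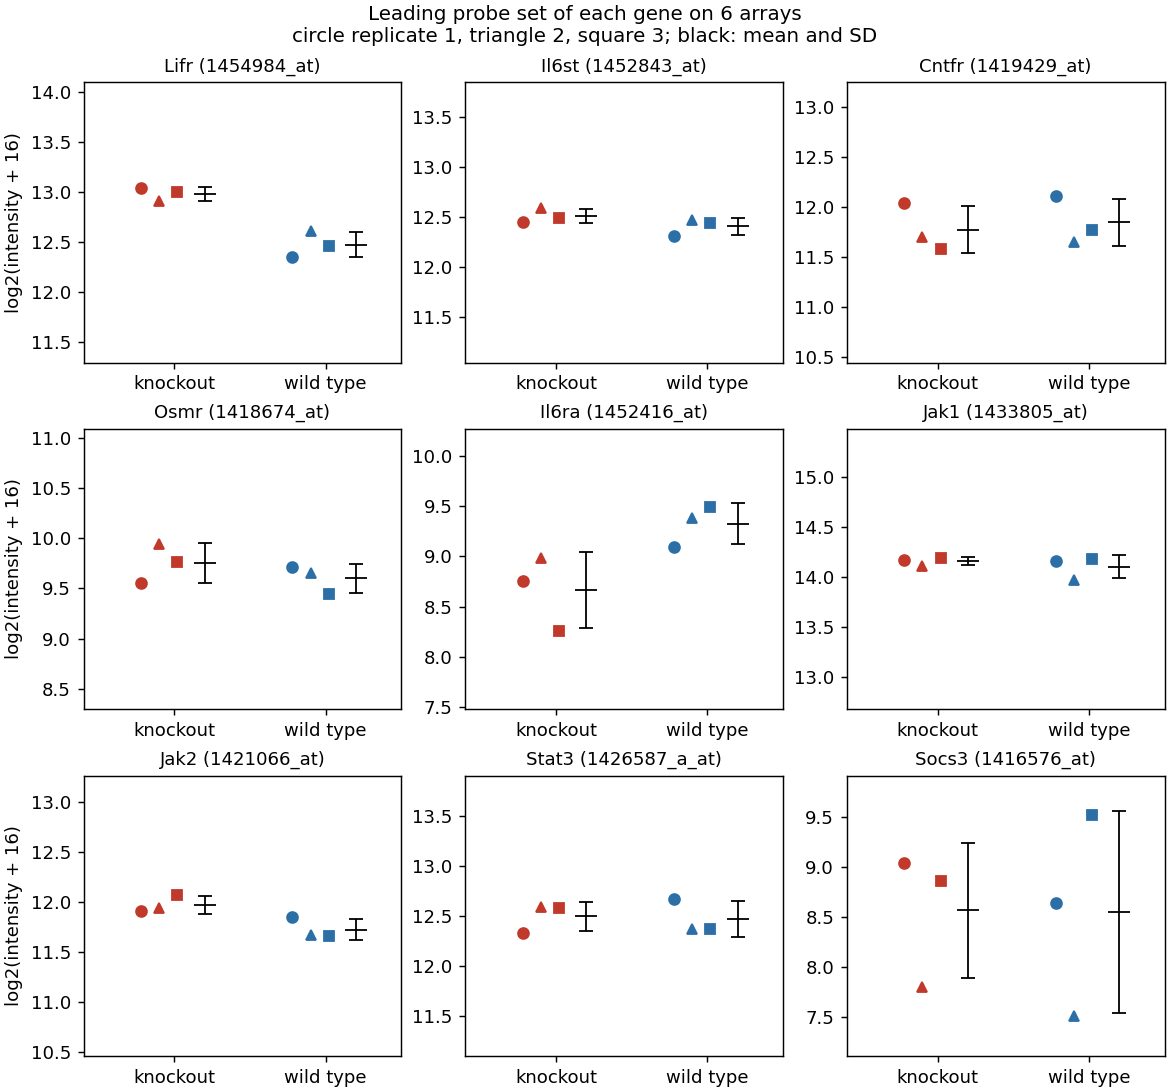
Log2(intensity + 16) of the leading probe set (the one with the highest mean) of each of the 9 genes on the 6 arrays, knockout in red at the left and wild type in blue at the right, with group mean and SD in black. All panels span the same number of log2 units: Lifr, Jak2 and, in the opposite direction, Il6ra have groups that do not overlap, while Socs3 spreads widely within both groups.

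Il6st, the signalling chain that Lifr needs as a partner, showed no separation between the genotypes. Its leading probe set 1452843_at read 5591, 6138 and 5757 in knockout, against 5058, 5655 and 5559 in wild type. The groups overlap, and the means were 5828 ± 280 in knockout and 5424 ± 320 in wild type (SD, n = 3 each). On the log2 scale the change was 0.10, with a 95% interval of -0.11 to 0.31 (limma adjusted p = 0.988). As a fold change the interval was 0.93 to 1.24, and a difference between Il6st and Lifr was not tested. The other 3 Il6st probe sets disagreed in sign, with log2 changes of 0.34 for 1437303_at, 0.02 for 1421239_at and -0.14 for 1460295_s_at.

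The ligand-binding partners gave mixed readings. Cntfr, which captures ciliary neurotrophic factor, had 4192, 3316 and 3049 in knockout, against 4407, 3202 and 3481 in wild type at probe set 1419429_at. Replicate 1 was the highest in both groups, and the groups overlap. The log2 change was -0.07 (95% interval -0.41 to 0.27, limma adjusted p = 0.997), and the other Cntfr probe set had 0.04.

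Osmr, the oncostatin M receptor chain, was dim. Its 1 tested probe set, 1418674_at, read 734, 972 and 852 in knockout, against 822, 789 and 679 in wild type. Its log2 change was 0.15 with an interval of -0.38 to 0.68 (limma adjusted p = 0.991). The untested Osmr probe sets had log2 changes of -1.15 and 0.26, with standard errors of 0.69 and 0.84.

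Il6ra, the interleukin-6 binding chain, was the 1 receptor whose groups separated in the opposite direction. Probe set 1452416_at read 417, 491 and 289 in knockout, against 532, 654 and 707 in wild type. All knockout arrays lay below all wild-type arrays, yet 1 of the 3 knockout values was under the intensity of 332 at which the filter stood. The means were 399 ± 102 in knockout and 631 ± 89.8 in wild type (SD, n = 3 each). The difference of -0.66 in log2 (SE 0.33, interval -1.38 to 0.06) did not pass, with a limma adjusted p = 0.988. The dimmer Il6ra probe set, 1422270_a_at, had a log2 change of -1.01 with a standard error of 0.93, and its groups overlapped.

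Neither Janus kinase passed the test. Jak1, the kinase that gp130 signalling depends on most, had 18381, 17712 and 18724 in knockout, against 18371, 16030 and 18601 in wild type at probe set 1433805_at. Only wild type replicate 2 stood away from the other 5 arrays. The change in log2 was 0.05 with an interval of -0.12 to 0.22, the narrowest among the 9 genes' leading probe sets (limma adjusted p = 0.991). The other Jak1 probe sets had changes of 0.05 and 0.22. At 1433804_at, the one with the larger change, the knockout values of 3571, 3570 and 3244 lay above the wild-type values of 3047, 3148 and 2707, without passing (limma adjusted p = 0.988).

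Jak2, the second kinase bound to these receptors, had 3810, 3905 and 4273 in knockout, against 3657, 3243 and 3203 in wild type at probe set 1421066_at. The groups do not overlap, and the closest knockout and wild-type arrays were both replicate 1. The log2 change was 0.25 (SE 0.11, interval -0.002 to 0.50, limma adjusted p = 0.988). At the other Jak2 probe set, 1421065_at, wild type spread from 1574 to 2505 around knockout values of 2053 to 2173, and the change was 0.08.

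Over the 18 tested probe sets of the 8 genes other than Lifr, 3 had groups without overlap (2 higher and 1 lower in knockout), against 9.89% of all tested probe sets (4.97% higher and 4.91% lower). Of the 18, 13 had a change above 0, against 50.9% of all tested, and their median change was 0.05 against 0.004. Probe sets of 1 gene share their target, so these are not 18 independent readings.

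Stat3, the transcription factor at the end of the cascade, had 5124, 6117 and 6074 in knockout, against 6504, 5275 and 5248 in wild type at probe set 1426587_a_at. Replicate 1 was the lowest of the knockouts and the highest of the wild types. The log2 change was 0.03 (interval -0.23 to 0.28, limma adjusted p = 0.998), and the fold change lay between 0.852 and 1.22. The other 3 Stat3 probe sets had changes of 0.26, -0.16 and -0.35, and the last of these had a knockout replicate 1 value of 122 beside 635 and 508 in the other two.

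Socs3, the feedback inhibitor whose promoter is printed above, gave the least precise reading. Probe set 1416576_at read 511, 207 and 449 in knockout, against 382, 166 and 718 in wild type. Replicate 2 was the lowest in both groups. The log2 change was 0.01, but the interval of -1.18 to 1.20 (limma adjusted p = 0.999) allows a fold change from 0.441 to 2.30, so no change within that range was detectable here. The 2 dim Socs3 probe sets had log2 changes of -0.25 and 0.42, with standard errors of 0.59 and 0.88.

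**Figure D2:**
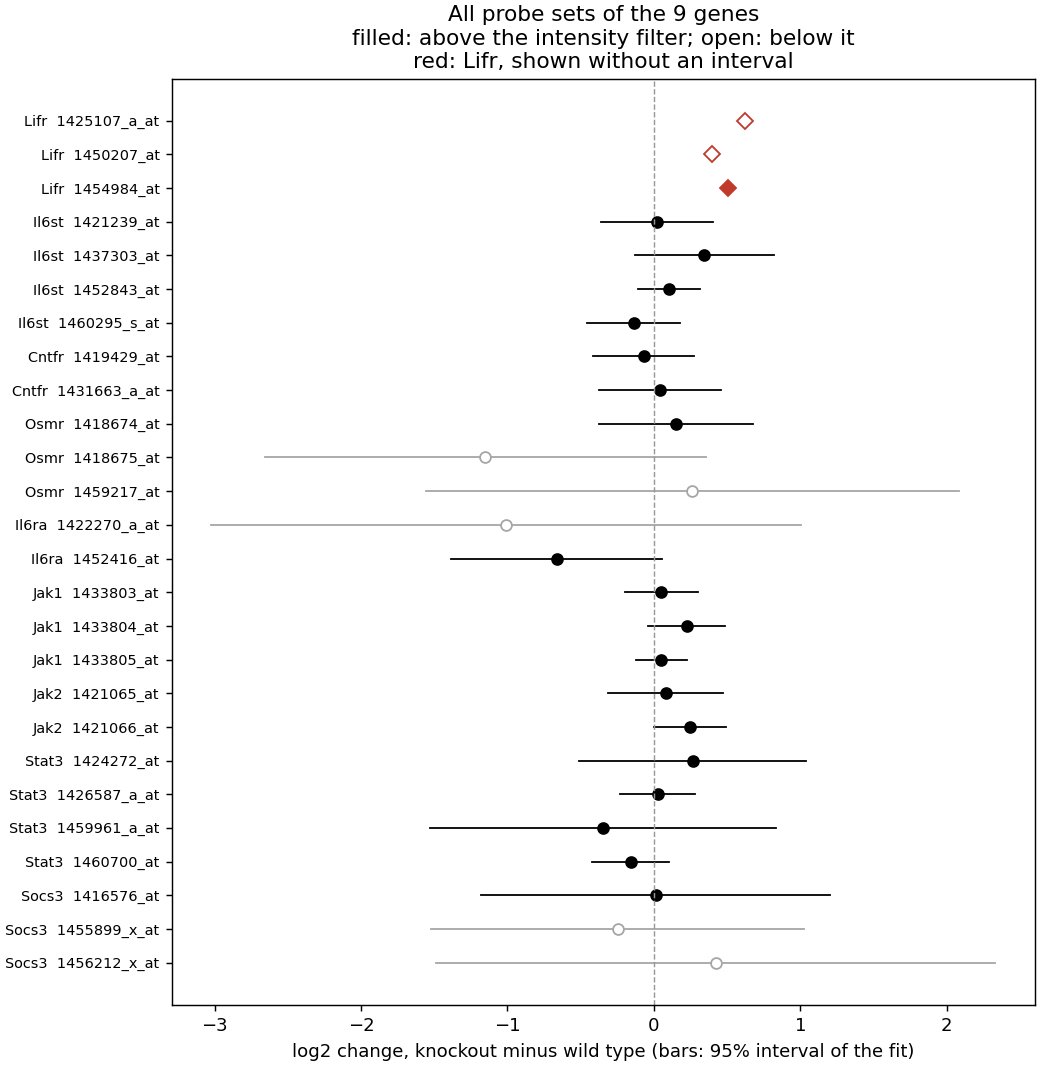
Log2 change (knockout minus wild type) of all 26 probe sets of the 9 genes, with the 95% interval of the limma fit; open symbols are probe sets below the intensity filter, and Lifr, chosen by this contrast, is drawn in red without an interval. The intervals of every other probe set reach across 0, and those of the dim probe sets span several log2 units.

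Other genes of the pathway were then read from the same fit, with 1 probe set per gene (the brightest tested). Of 12 genes for ligands and their soluble partners, 8 had a probe set assigned to their symbol alone, and the others were not measured. Among these 8, 1 passed the filter, the cardiotrophin-1 gene Ctf1, at 0.18 on the log2 scale (SE 0.26). In the other 4 lists 0 of 65 genes were called in either direction, against 0.016% of the 12493 genes tested, and 3 had an unadjusted p under 0.05 in limma, against 4.75% of all genes.

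Among 11 tested genes of other cytokine receptors, taken from class I and from the interferon and interleukin-10 families, 8 had a change above 0 and 3 below, with a median of 0.23, against 50.1% above 0 and a median of 0.0003 over all genes. The lowest p belonged to Ifnar2, a chain of the type I interferon receptor. It read 3271, 3127 and 3522 in knockout, against 2225, 2428 and 2732 in wild type, without overlap (log2 change 0.43, SE 0.13, limma adjusted p = 0.988). Its partner chain Ifnar1 had a change of 0.26 and the interferon-gamma receptor Ifngr1 0.30, both with overlapping groups. In all, 2 of the 11 were higher without overlap and 0 lower, against 5.34% and 5.12% of all genes.

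The JAK-STAT effectors and adaptors had a median change of -0.06 over 14 tested genes, 5 above 0 and 9 below. Sos1, an exchange factor that links receptors to Ras, read 6315, 8456 and 6505 in knockout, against 5329, 5794 and 5625 in wild type (change in log2 of 0.33, SE 0.12, limma adjusted p = 0.988). The next lowest p-values were those of Ptpn11, the phosphatase SHP2 that docks on gp130 (-0.12), and the adaptor Gab2 (-0.19). Over 16 tested negative regulators the median was -0.01, with Ptpn2 at 0.38, Ptpn6 at -0.32 and Sh2b3 at -0.20. The Ptpn2 value leans on 1 wild-type array, which read 2264 beside 5704 and 4428 in the other two.

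Genes known as Stat3 targets had a median change of 0.05 over 24 tested, 16 above 0 and 8 below. The lowest p was that of A2m, which encodes the protease inhibitor alpha-2-macroglobulin. It read 1251, 3156 and 3108 in knockout, against 1231, 1478 and 1340 in wild type, so that knockout replicate 1 stayed among the wild types (log2 change 0.77, SE 0.30, limma adjusted p = 0.988). Gfap, the astrocyte filament gene that Stat3 drives in reactive astrocytes, had 21546, 20437 and 20580 in knockout, against 24867, 22096 and 22247 in wild type. It lay lower in knockout without overlap, with a limma adjusted p = 0.988 and -0.14 as the log2 change (SE 0.07), and Ccnd1, a cyclin, had -0.17. Of the 24 targets, 1 was higher without overlap and 1, Gfap, lower, against 5.34% and 5.12% of all genes.

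**Figure D3:**
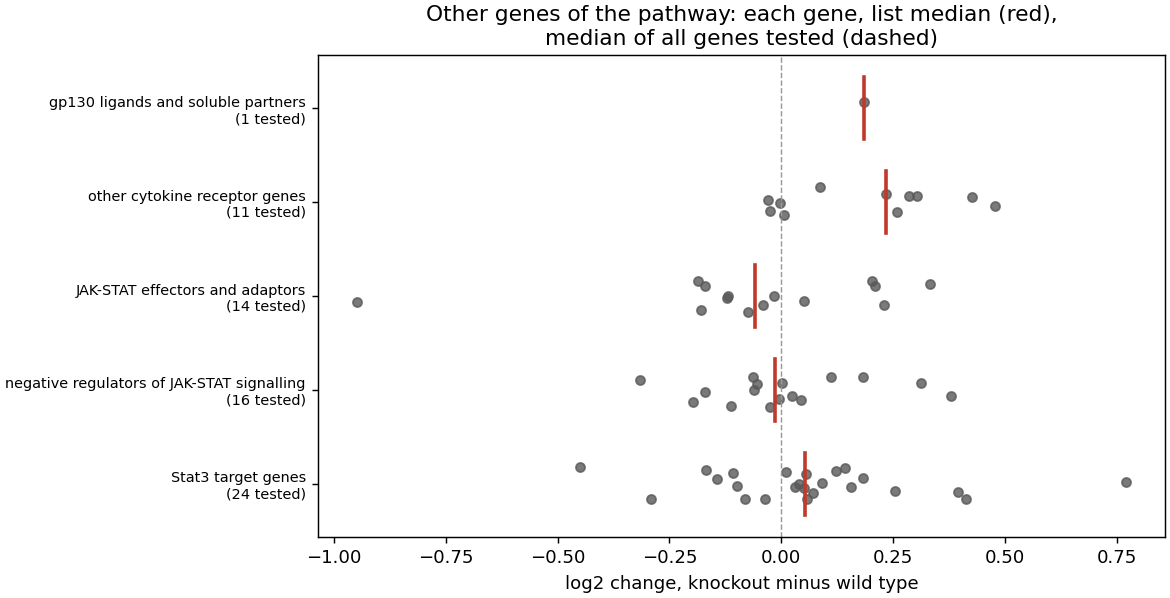
Log2 change (knockout minus wild type) of each tested gene in 5 lists of the pathway, with the list median in red and the median of all 12493 genes dashed; vertical scatter within a list has no meaning. List medians run from -0.06 for effectors and adaptors to 0.23 for other cytokine receptors, and the ligand list holds 1 gene.

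Lifr and Osmr lie side by side on chromosome 15, which also carries Ppp1r1a. In RefSeq gene order Osmr and Lifr were the 15th and 16th of 489 measured genes there and Ppp1r1a the last, with 472 measured genes between Lifr and Ppp1r1a. Among the 10 measured genes on each side of Lifr, 13 had a change above 0 and 7 below, against 50.1% above 0 over all genes. Of these 20 genes 0 were called and 1 had an unadjusted p under 0.05 in limma, against 0.016% and 4.75% of all genes. Their median change was 0.05, and 1 of the 20 was higher without overlap, against 5.34% of all genes.

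The 5 genes before Lifr were Ptger4, a prostaglandin E2 receptor (log2 change 0.11), Dab2, an endocytic adaptor (0.31), Fyb (-0.21), Rictor, a subunit of the mTORC2 complex (0.04), and Osmr (0.15). The 5 after it were Egflam (0.12), Wdr70 (0.05), the nucleoporin gene Nup155 (-0.005), Cplane1 (0.03) and the cohesin loader Nipbl (0.08). Their standard errors ran from 0.10 for Nipbl to 0.36 for Egflam. The 1 neighbour that was higher without overlap was Slc1a3, the astrocyte glutamate transporter (0.14), and the 1 with an unadjusted p under 0.05 was Ranbp3l (0.56, SE 0.24); both were singled out after their values were seen.

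**Figure D4:**
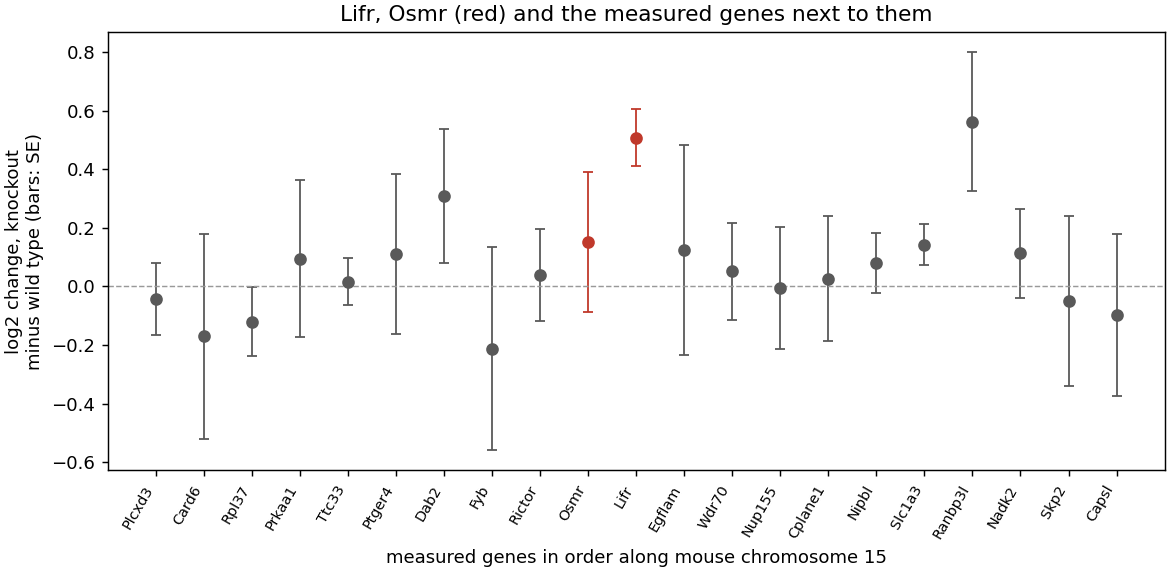
Log2 change (knockout minus wild type, bars are the SE) of Lifr, Osmr and the measured genes next to them, in their order along chromosome 15. Lifr, which was chosen by this contrast, is at 0.51 and its bar is no test of it. The neighbours run from -0.21 for Fyb to 0.56 for Ranbp3l.

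The genes whose leading probe sets tracked Lifr most closely over the 6 arrays were found by Pearson correlation of log2 values among 12492 other genes. They were the histone demethylase gene Kdm3b (r = 0.994), Themis2 (0.988), Aftph (0.986), Ntan1 (0.984) and the sulfonylurea receptor gene Abcc8 (0.982). With group means removed the same correlations were 0.955, 0.972, 0.984, 0.853 and 0.799. They are the highest of 12492 values, each over the same 6 arrays, and are given as a description. Likeness to Lifr, itself chosen for its higher value in knockout, selects genes that are higher there too, and the log2 changes of the 5 were 0.10 for Aftph to 0.35 for Abcc8. Among the pathway genes the correlation with Lifr was highest for Jak2 (0.714) and Il6st (0.677) and lowest for Il6ra (-0.751); with group means removed these were -0.51, 0.32 and 0.05.

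Hippocampal neuron markers were bright, among them Snap25 at 107424 to 114429 in knockout and 109091 to 116510 in wild type, and Syt1 at 94406 to 110584 in knockout and 96688 to 112426 in wild type. Their mean log2 level over 14 tested genes was 14.44 to 14.58 in knockout and 14.59 to 14.60 in wild type, without overlap. Of these 14 genes 3 were above 0, against 50.1% of all genes, with a median change of -0.08. In 2 of them knockout was lower without overlap, against 5.12% of all genes. Markers of bordering tissue had larger median changes, 0.56 for the choroid plexus and ependyma list and 0.41 for the meningeal and fibroblast list. Of the choroid plexus and ependyma list 15 of 17 tested genes were above 0, against 50.1% of all genes, and 0 were without overlap. Its mean log2 levels overlapped, at 11.5 to 12.2 in knockout and 10.9 to 11.8 in wild type. All 15 genes of the meningeal and fibroblast list were above 0, 4 of them without overlap (against 5.34% of all genes), with levels of 11.4 to 11.9 in knockout and 11.3 to 11.5 in wild type. The summed intensity ran from 238919 to 295643 in knockout and from 213267 to 301594 in wild type for the choroid plexus list, in which 17 of 20 genes passed the filter. Ttr alone read 192773 to 216121 in knockout and 181791 to 242763 in wild type, so this sum is mostly a reading of 1 gene. For the meningeal list the summed intensity was 68764 to 94603 in knockout and 57880 to 72107 in wild type. No marker list had a called gene. The brightest markers had log2 changes of -0.02 for Ttr and 0.77 for Kcnj13 (choroid plexus), and of 0.11 for Dcn and 0.41 for Igfbp2 (meninges).

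On replicates 1, 2 and 3 the choroid plexus level was 11.5, 12.2 and 12.1 in knockout and 10.9, 11.8 and 11.8 in wild type. On the same arrays Lifr read 8402, 7645 and 8182 in knockout and 5209, 6217 and 5623 in wild type. Astrocytes are the cells in which gp130 signalling induces Gfap. Their markers had mean log2 levels of 13.813 to 13.852 in knockout and 13.755 to 13.810 in wild type. Knockout thus lay higher by a narrow margin, without overlap. Of 14 genes 10 were above 0, against 50.1% of all genes, with a median change of 0.06 (Slc1a2 0.11, Aldoc 0.06). Slc1a3 was higher without overlap (0.14), and Gfap itself was lower without overlap (-0.14). Microglial markers had a median of 0.02 (Csf1r -0.005, C1qb 0.12) and endothelial and mural markers 0.09 (Rgs5 0.003, Slc2a1 0.20). Oligodendrocyte markers had -0.13 (Mbp -0.13, Cnp -0.12), with 3 of 13 lower without overlap, against 5.12% of all genes. With the choroid plexus level as a covariate, the log2 changes were 0.48 for Lifr, 0.04 for Il6st, 0.14 for Cntfr and 0.12 for Osmr. For Il6ra, Jak1, Jak2, Stat3 and Socs3 they were -0.75, 0.08, 0.28, 0.06 and 0.25, and 0 member probe sets were called. In whole tissue, fewer cells of a type and less RNA per cell cannot be told apart. The covariate holds 1 marker list only, and the part of cell composition in the values of these genes was not tested.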

How the data were processed

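The authors deposited 1 table of linear-scale intensity values, 1 per probe set and array; no source used here names the software that made it. With 2% of values trimmed from either end, every array had a mean of 2500, so the table had been scaled already, and it was kept as it was. Values were transformed as log2(intensity + 16). Controls (64 probe sets) and the dimmest 40% by mean over the arrays were dropped, leaving 26999. Knockout was set against wild type in limma 3.58.1 under R 4.3.3 (genotype as sole factor, eBayes with its trend option, two-sided p, Benjamini-Hochberg adjustment). A run of the fit on simulated data checked only that the median estimate recovered the changes put in, and does not bear on the calls. Gene names come from the platform annotation, and gene order and promoters from RefSeq GRCm38.p6. No detection calls were used, and the number of arrays limits the precision.

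The 9 genes, the pathway and marker lists and the rules for naming genes were chosen with earlier results of these data known. Named were all members, Ppp1r1a, the 3 genes of lowest p in each pathway list, the 5 measured genes on each side of Lifr, the 5 genes most like Lifr and bright cell type markers. Alternatives tried were another pseudocount, filter, scaling or variance model, weighted arrays, a replicate block, a choroid plexus covariate, averaging the probe sets of a gene, and leaving out arrays.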

Additional observations from a re-analysis of the deposited data

How the results depend on the processing

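The log2 change of Lifr was positive in all 20 alternatives, between 0.42 (without replicate 1 of both groups) and 0.57 (without wild type replicate 2). Leaving out 1 array at a time, it ran from 0.45 to 0.57. Lifr was chosen by this contrast and its groups do not overlap, so leaving out arrays could not turn its sign. Another filter, another variance model, the replicate block and averaging probe sets cannot move its change, and all gave 0.51. In any alternative 0 member probe sets were called. The numbers pair no samples by any label: the deviations of same-numbered arrays correlated at 0.241, 0.054 and 0.0998. Those of differently numbered arrays correlated at -0.165 to 0.110. With the replicate block, 7 probe sets were higher and 4 lower in the whole fit, and the Lifr change was 0.51. Over the whole fit the count of higher probe sets, 0 as reported, was 1 with the choroid plexus covariate, 7 without replicate 1 of both groups, and 0 to 2 leaving out 1 array, the 2 arising without knockout replicate 1. The count of lower ones, 3 as reported, was 1 without an intensity trend, 5 with the covariate, 7 without replicate 1 of both groups, and 3 to 4 leaving out 1 array. The cause of these changes was not tested. Jak2, Il6st and Osmr stayed above 0 and Il6ra below 0 wherever they had a value. The groups of Jak2 and Il6ra do not overlap, so leaving out arrays could not turn their sign. Another filter, another variance model and the replicate block cannot move the change of any of these genes. The sign of the uncalled values near 0 differed for Cntfr in 3 alternatives, Jak1 in 1, Stat3 in 5 and Socs3 in 6. Socs3 ran from -0.51 to 0.49. With the filter at 60%, Osmr, Il6ra and Socs3 were too dim to have a value. With the arrays centred on their medians, the Jak2 groups overlapped (log2 change 0.23). An unadjusted p under 0.05 in limma arose for Jak2 and Il6ra in some alternatives, though not in the fit reported above. For Jak2 it ran from 0.025 (without replicate 1 of both groups) to 0.22 (averaging probe sets). For Il6ra it ran from 0.022 (without an intensity trend) to 0.21 (without knockout replicate 3). The SE had a median of 0.177 in the whole fit and 0.165 over the 18 of the 8 genes other than Lifr.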
